A study of Mus musculus with 4 samples.

Results

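The IGF-binding proteins, the IGF receptors and the insulin receptor substrates were followed in Myc-CaP cells, a mouse prostate cancer cell line of the Hi-Myc model on the FVB background, in which a MYC transgene is driven in the prostate by a modified probasin promoter that responds to androgen. The genes were taken by name from the deposited count table: 10 of 52636 genes, namely Igfbp2, Igfbp3, Igfbp4, Igfbp5, Igfbp6, Igfbp7, Igf1r, Igf2r, Irs1 and Irs2. The cells stably carried hairpins against focal adhesion kinase (FAK, the product of Ptk2), here shFAK, or a negative control hairpin, here shNC, and each line was kept for 24 h in 10 µM norepinephrine or in vehicle. The groups were therefore shFAK with norepinephrine, shFAK with vehicle, shNC with norepinephrine and shNC with vehicle, all in medium with fetal bovine serum. Each of the 4 groups was 1 library, so no difference below has a replicate check and no test across samples was run. The hairpin sequences, the number of hairpins and whether a line was a clone or a pool are not given in the sources used here, and a hairpin effect cannot be told apart from any other difference between the lines.

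Insulin-like growth factors (IGF1 and IGF2) signal through the receptor tyrosine kinase encoded by Igf1r, and insulin through its close relative Insr. Both receptors phosphorylate the docking proteins IRS1 and IRS2, which recruit PI3-kinase and so activate AKT. The receptor encoded by Igf2r does not signal in this way: it takes IGF2 and lysosomal enzymes into the cell and delivers them to lysosomes. The IGF-binding proteins are secreted. They hold IGFs in the extracellular space, can block or prolong their action, and some also bind matrix and cell surfaces. IGFBP7 binds IGFs weakly and is often grouped apart from the others. In the prostate, IGF signalling is a growth and survival pathway that has been studied in cancer.

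The libraries held 23410486 to 29948640 counts. Ptk2, the target of the hairpins, had 1248 and 1294 counts in shFAK with norepinephrine and with vehicle, against 3158 and 3547 in shNC. The labelled cell type was checked with epithelial markers. Krt8 had 48 to 165 counts per library and Cldn4 6 to 17, whereas Epcam, Cdh1 and Krt18 had at most 15, 7 and 4, so these last 3 epithelial markers were absent or close to absent. Of 7 fibroblast markers, Dcn, Lum and Col3a1 were at 0 in all 4 libraries, whereas Pdgfra had 198 to 326 counts and Col1a1 4 to 24. The 5 endothelial markers had at most 5 counts each. Reads fell on 23121 genes in shFAK with norepinephrine, against 20442 to 21678 in the other libraries. That shFAK library also held 119 genes with at least 8 counts that had at most 2 in every other library, where the other libraries held 4 to 9 such genes each.

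Of the 5 members with enough reads for a ratio, the promoters of the 4 with the highest shFAK over shNC ratios in norepinephrine are shown first, because the ratios of these genes carry the results below. Each sequence is the RefSeq window of build GRCm38.p6 from 250 bases before the annotated start site to 50 bases after it, read 5′ to 3′ on the gene's strand. Capitals mark the palindrome CACGTG, the E-box bound by MYC with its partner MAX. The windows are chr1:72874816-72875115 for Igfbp5, chr1:82291390-82291689 for Irs1, chr17:12769657-12769956 for Igf2r and chr8:11008880-11009179 for Irs2, all on the minus strand.
Igfbp5: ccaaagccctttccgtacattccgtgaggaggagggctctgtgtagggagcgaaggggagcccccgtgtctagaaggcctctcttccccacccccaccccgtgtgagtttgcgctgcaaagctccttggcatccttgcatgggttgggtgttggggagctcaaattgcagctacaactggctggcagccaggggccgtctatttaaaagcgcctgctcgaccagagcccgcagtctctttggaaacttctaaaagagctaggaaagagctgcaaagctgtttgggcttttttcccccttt
Irs1: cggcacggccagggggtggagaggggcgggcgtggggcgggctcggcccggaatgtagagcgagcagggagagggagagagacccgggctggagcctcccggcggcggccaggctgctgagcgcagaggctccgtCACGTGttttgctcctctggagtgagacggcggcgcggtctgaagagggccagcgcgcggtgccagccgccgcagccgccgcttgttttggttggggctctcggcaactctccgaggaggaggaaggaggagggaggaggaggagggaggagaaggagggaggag
Igf2r: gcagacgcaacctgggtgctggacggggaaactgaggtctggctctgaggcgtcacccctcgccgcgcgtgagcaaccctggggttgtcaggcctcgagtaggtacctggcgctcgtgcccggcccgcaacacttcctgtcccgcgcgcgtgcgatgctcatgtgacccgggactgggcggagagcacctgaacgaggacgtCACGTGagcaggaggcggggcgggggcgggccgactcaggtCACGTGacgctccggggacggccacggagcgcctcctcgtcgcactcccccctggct
Irs2: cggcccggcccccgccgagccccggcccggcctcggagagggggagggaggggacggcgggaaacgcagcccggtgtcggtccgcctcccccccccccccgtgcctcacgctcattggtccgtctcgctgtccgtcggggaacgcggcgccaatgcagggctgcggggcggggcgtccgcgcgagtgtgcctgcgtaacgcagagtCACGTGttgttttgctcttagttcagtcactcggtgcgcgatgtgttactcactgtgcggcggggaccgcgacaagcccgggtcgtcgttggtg

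Windows were matched for all 10 members. CACGTG was present once in the Irs1 and Irs2 windows, at first bases -115 and -44 from the start site, and in the Igf2r window at -48 and -7; among the other members it was found in Igfbp2 at -142. It was present in 7.15% of the 32851 RefSeq windows of that length. The median share of G and C bases over all these windows was 52.7%. In the windows printed above it was 71.3% for Irs1, 70.7% for Igf2r, 72.0% for Irs2 and 56.3% for Igfbp5. The shares of windows given here and below were not matched for base composition, so they do not show how rare a match is among windows of like composition. The core of the cAMP response element, TGACG, was searched on both strands because adrenergic receptors can act through cAMP. It was found in the windows of Irs1 (-118) and Igf2r (-200, -51 and -3) and in 20.8% of all windows. In Irs1 and Igf2r it overlapped a CACGTG match. The Igfbp5 window held neither of these, nor GGGCGG (35.7% of all windows on either strand), TATAAA (13.6%) or the AP-1 motif TGANTCA (7.81%). The longest run shared by the Irs1 and Irs2 windows was gtCACGTGtt, held by 0.0761% of the 32851 windows. For Irs2 and Igf2r it was gcggggcgggg, held by 1.85% of windows, and for Irs1 and Igf2r ggggcgggc, held by 3.44%. These runs were looked at after the sequences had been seen. These matches describe letters in a window, and no binding was measured. The RefSeq start of Irs2 lies 471 bases upstream of the gene's edge in the deposited table, that of Igf2r 42 and that of Irs1 23 bases upstream, and that of Igfbp5 19 bases inside it.

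Levels between genes were compared as CPM per kb, the count scaled to effective library size (CPM) and divided by the deposited gene length. Igfbp5, Igf1r, Igf2r and Irs2 were the abundant members, each between 2.14 and 8.66 CPM per kb in every library. Irs1 and the other binding proteins were at most 0.299 CPM per kb in any library. Averaged over the 4 libraries, the order was Irs2 (6.65 CPM per kb), Igf2r (6.61), Igf1r (5.45), Igfbp5 (5.31), Irs1 (0.168), Igfbp6 (0.149), Igfbp2 (0.102), Igfbp7 (0.0873), Igfbp4 (0.0756) and Igfbp3 (0.0160). The ranges of neighbours in this order overlapped, with 1 exception, the step between Igfbp5 and Irs1. The place of Igfbp5 depended on the line. It was the highest of the 4 abundant members in both shFAK libraries and the lowest of them in both shNC libraries. In shFAK with vehicle its lead was small, at 8.26 CPM per kb against 8.16 for Igf2r.

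**Figure D1:**
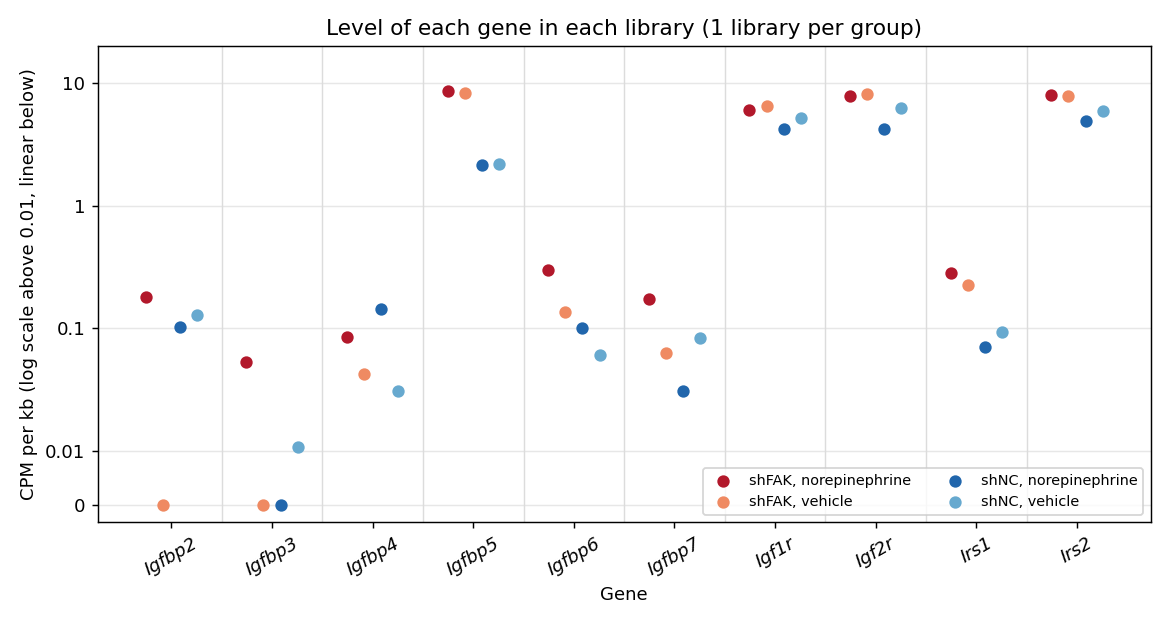
Level of each of the 10 genes in each library, in CPM per kb on an axis that is logarithmic above 0.01 and linear below; each point is 1 library and libraries at 0 counts sit at the bottom. Igfbp5 lies at 8.66 and 8.26 in the shFAK libraries and at 2.14 and 2.18 in the shNC libraries, and the other binding proteins lie more than a factor of 10 below the shFAK values.

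Of the 10 members, 5 reached 1 CPM in at least 1 library and were kept for ratios together with 12351 genes in all: Igfbp5, Igf1r, Igf2r, Irs1 and Irs2. Irs1 passed that filter only through the shFAK libraries. The size rule asked for a 2-fold difference or more, a log2 ratio of 1 or beyond in either direction, together with an exact 99% counting interval that did not reach 0. Such an interval speaks of the reads counted and not of variation between cultures.

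Among the binding proteins, Igfbp5 was the one with substantial reads. Igfbp5 (ENSMUSG00000026185, mm10 chromosome 1, 72857932 to 72874884, minus strand) encodes a binding protein that also attaches to extracellular matrix. It had 1250 counts in shFAK with norepinephrine, 1316 in shFAK with vehicle, 342 in shNC with norepinephrine and 388 in shNC with vehicle. As CPM these were 52.0 and 49.6 in shFAK, against 12.8 and 13.1 in shNC. Both shFAK libraries were thus high and both shNC libraries low, with little difference by treatment. The shFAK over shNC log2 ratio was 2.01 in norepinephrine (interval 1.79 to 2.25), 4.04-fold, and 1.91 in vehicle (1.71 to 2.14), 3.77-fold. Ranked among 9383 protein-coding genes that averaged 5 CPM or more, this ratio was the 4th from the top in norepinephrine and the 6th in vehicle. Among all genes kept, it was the 46th in norepinephrine and the 21st in vehicle. Per length, Igfbp5 stood at 1.45 and 1.28 times Igf1r in shFAK with norepinephrine and vehicle (99% intervals 1.32 to 1.59 and 1.18 to 1.40), against 0.507 and 0.420 times Igf1r in shNC (0.434 to 0.589 and 0.364 to 0.483).

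Fibroblasts are a known source of IGFBP5, so the marker sums are given beside this result. The 7 fibroblast markers summed to 1.41 and 1.38 CPM per kb in the shFAK libraries with norepinephrine and vehicle, against 0.778 and 0.989 in the shNC libraries, with 3 of the 7 detected in each library. The sum was mostly Pdgfra, with 299 and 326 counts in shFAK against 198 and 276 in shNC. Col1a1 had 24 and 24 counts in shFAK against 4 and 11 in shNC. The 5 leukocyte markers summed to 0.920 and 1.11 CPM per kb in shFAK, against 0.787 and 0.766 in shNC. The epithelial marker Krt8 had 48 and 50 counts in shFAK with norepinephrine and vehicle, against 165 and 153 in shNC. The part of these marker levels in the Igfbp5 ratio was not tested. In bulk RNA, fewer cells of a type and less RNA per cell cannot be told apart.

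The remaining binding proteins were close to the detection limit. A count of 3, the limit that 0 reads allow, corresponds to 0.101 to 0.125 CPM in these libraries. Igfbp4, whose product is cut by pappalysins to release IGF, had 9 and 5 counts in shFAK with norepinephrine and vehicle, against 17 and 4 in shNC. Igfbp2 had 8 and 0 counts in shFAK, against 5 and 7 in shNC. Igfbp6, which prefers IGF2, had 8 and 4 in shFAK, against 3 and 2 in shNC. Igfbp7 had 5 and 2 in shFAK, against 1 and 3 in shNC. Igfbp3, the main carrier of IGFs in blood, had 4 and 0 in shFAK, against 0 and 1 in shNC. At this depth no shFAK over shNC difference was detectable in any of these 5 genes, whose 99% intervals all included 0. For Igfbp2, Igfbp3, Igfbp6 and Igfbp7 the highest count was in the shFAK norepinephrine library, the one with the excess of low-count genes described above; the part of that excess was not tested. Igfbp7 also overlaps Polr2b on the other strand by 85 bases, and the library kit does not mark strand.

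Igfbp2 and Igfbp5 lie next to each other on chromosome 1, on opposite strands, with 5457 bases between their 3′ ends. The neighbours differed in level throughout: Igfbp2 (72824503 to 72852474) had at most 8 counts where Igfbp5 had at least 342. The 6 binding-protein genes together had 1284 and 1327 counts in shFAK with norepinephrine and vehicle, against 368 and 405 in shNC. Igfbp5 made up 97.4% of these counts in shFAK with norepinephrine (95% Clopper-Pearson interval 96.3% to 98.2%) and 99.2% in shFAK with vehicle (98.5% to 99.6%). In shNC it made up 92.9% with norepinephrine (89.8% to 95.3%) and 95.8% with vehicle (93.4% to 97.5%). Per length, the summed binding-protein level was 9.45 and 8.50 CPM per kb in shFAK, against 2.51 and 2.50 CPM per kb in shNC.

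By the rule for likeness, protein-coding genes that averaged 5 CPM or more, without those known only by a predicted-gene or clone symbol, were ranked by Euclidean distance of their centred log2 CPM over the 4 libraries. The 3 nearest to Igfbp5 among 9165 genes were Ablim1 (distance 0.25), Cxcl5 (0.30) and Abca1 (0.30). Ablim1, an actin-binding protein, had 348 and 412 counts in shFAK with norepinephrine and vehicle, against 86 and 96 in shNC. The chemokine gene Cxcl5 had 1779 and 1884 in shFAK, against 578 and 488 in shNC, and the cholesterol exporter gene Abca1 had 700 and 717 in shFAK, against 217 and 275 in shNC. A profile over 4 libraries is a description of these libraries only.

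The receptor genes were higher in shFAK by less than the size rule asks. Igf1r (ENSMUSG00000005533, chromosome 7, 67952827 to 68233668, plus strand) had 2411 and 2865 counts in shFAK with norepinephrine and vehicle, against 1887 and 2583 in shNC. As CPM these were 100.3 and 108.0 in shFAK, against 70.8 and 87.2 in shNC. Both shFAK libraries were above both shNC libraries, and shNC with norepinephrine was the lowest. The shFAK over shNC log2 ratio was 0.50 in norepinephrine (0.39 to 0.62) and 0.31 in vehicle (0.21 to 0.41).

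Igf2r (ENSMUSG00000023830, chromosome 17, 12682406 to 12769664, minus strand) had 1765 and 2043 counts in shFAK with norepinephrine and vehicle, against 1066 and 1749 in shNC. Its CPM was 73.4 and 77.0 in shFAK, against 40.0 and 59.1 in shNC. The shNC norepinephrine library stood lowest and both shFAK libraries were close to each other. The log2 ratio was 0.88 in norepinephrine (0.73 to 1.02), 1.84-fold, and 0.38 in vehicle (0.26 to 0.50), 1.30-fold. The antisense gene Airn overlaps Igf2r by 28354 bases and had 0 counts in every library. Per length, Igf1r stood at 0.768 and 0.788 of Igf2r in shFAK with norepinephrine and vehicle (99% intervals 0.708 to 0.833 and 0.731 to 0.850). In shNC it stood at 0.995 and 0.830 of Igf2r (0.901 to 1.10 and 0.766 to 0.900).

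Insr, the insulin receptor gene, is no member and is set beside them because its product forms hybrid receptors with that of Igf1r; it was picked out after its values had been seen. It had 2075 and 2499 counts in shFAK with norepinephrine and vehicle, against 1349 and 1862 in shNC. The log2 ratios were 0.77 in norepinephrine (0.64 to 0.90) and 0.58 in vehicle (0.47 to 0.70). Per length, Igf1r was 0.951 and 0.939 of Insr in shFAK (99% intervals 0.880 to 1.03 and 0.874 to 1.01), against 1.15 and 1.14 of Insr in shNC (1.04 to 1.26 and 1.05 to 1.23). The intervals took in 1 in both shFAK libraries and lay above 1 in both shNC libraries.

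**Figure D2:**
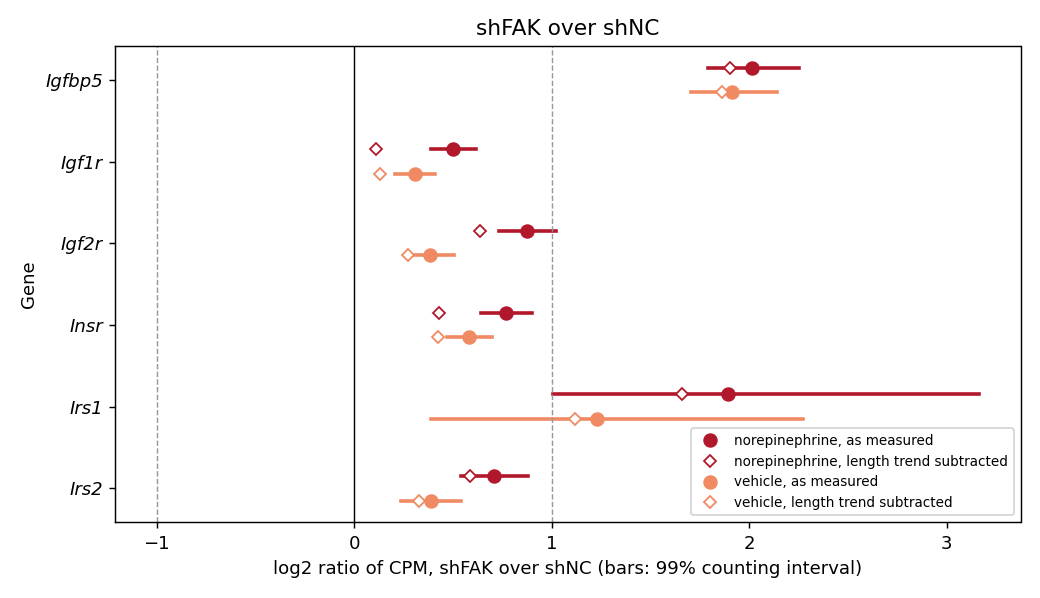
Log2 ratio of CPM, shFAK over shNC, for the 5 members kept and Insr, in norepinephrine (upper of each pair) and in vehicle; filled points are the ratios as measured, bars their 99% counting intervals, open diamonds the ratios with the trend with gene length subtracted, and dashed lines a 2-fold difference. Igfbp5 (2.01 and 1.91) and Irs1 (1.89 and 1.23) lie beyond 2-fold, and Igf1r moves to 0.11 and 0.13 once the length trend is taken off.

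The docking-protein genes differed in level. Irs1 (ENSMUSG00000055980, chromosome 1, 82233101 to 82291416, minus strand) had 62 and 55 counts in shFAK with norepinephrine and vehicle, against 17 and 25 in shNC. Its CPM was 2.58 and 2.07 in shFAK, against 0.638 and 0.844 in shNC. Both shFAK libraries were above both shNC libraries. The gene Gm9747 overlaps Irs1 by 2822 bases on the other strand and had 0 counts in every library. The Irs1 log2 ratio was 1.89 in norepinephrine (1.01 to 3.16), 3.71-fold, and 1.23 in vehicle (0.39 to 2.27), 2.34-fold. Both met the size rule. These are small counts with wide intervals, and a filter passed only through the higher group favours genes that differ.

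Irs2 (ENSMUSG00000038894, chromosome 8, 10984681 to 11008458, minus strand) had 1213 and 1306 counts in shFAK with norepinephrine and vehicle, against 822 and 1114 in shNC. Its CPM was 50.5 and 49.2 in shFAK, against 30.8 and 37.6 in shNC, again with the shNC norepinephrine library lowest. The log2 ratio was 0.71 in norepinephrine (0.54 to 0.88), 1.64-fold, and 0.39 in vehicle (0.24 to 0.54), 1.31-fold. The overlapping transcript 9530052E02Rik had at most 2 counts. Between the genes, Irs2 was the more abundant docking-protein transcript in every library. Per length it was 28.3-fold and 34.3-fold above Irs1 in shFAK with norepinephrine and vehicle (99% intervals 20.4 to 40.6 and 24.3 to 50.3). In shNC it was 69.9-fold and 64.4-fold above Irs1 (38.3 to 144.9 and 39.0 to 115.7). Irs1 made up 4.86% and 4.04% of the summed Irs1 and Irs2 counts in shFAK, against 2.03% and 2.20% in shNC.

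For shFAK over shNC, 2 of the 5 members kept, Igfbp5 and Irs1, were higher by the size rule in each treatment and none was lower. Over all 12351 genes kept, 2.59% were higher by that rule in norepinephrine and 1.42% in vehicle. The interval left out 0 on the higher side for all 5 members kept in each treatment, where 27.6% of all genes kept did so in norepinephrine and 21.0% in vehicle. The members' median log2 ratio was 0.88 in norepinephrine and 0.39 in vehicle, against 0.02 and 0.00 over all genes kept. Since a filter chose these 5 and the genes were picked with results known, these counts describe the members and support nothing further.

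The ratios varied with gene length across all genes. The Spearman correlation of the shFAK over shNC log2 ratio with deposited gene length over 12351 genes was 0.47 in norepinephrine and 0.32 in vehicle, as a description of genes that share their libraries. The members kept are long: 16791 bases for Igf1r, 9438 for Igf2r, 9144 for Irs1, 6323 for Irs2 and 6006 for Igfbp5. With a smooth trend on length subtracted, Igfbp5 stood at 1.90 in norepinephrine and 1.86 in vehicle, and Irs1 at 1.66 and 1.12. Igf2r stood at 0.64 and 0.27, and Irs2 at 0.59 and 0.33. Igf1r, the longest, stood at 0.11 in norepinephrine (interval 0.00 to 0.23, which took in 0) and at 0.13 in vehicle (0.03 to 0.23). Insr stood at 0.43 in each treatment. With a trend on length and GC, added after seeing the data, Igf1r in norepinephrine stood at 0.13 (0.01 to 0.24), which left out 0. What underlies the trend was not tested.

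**Figure D3:**
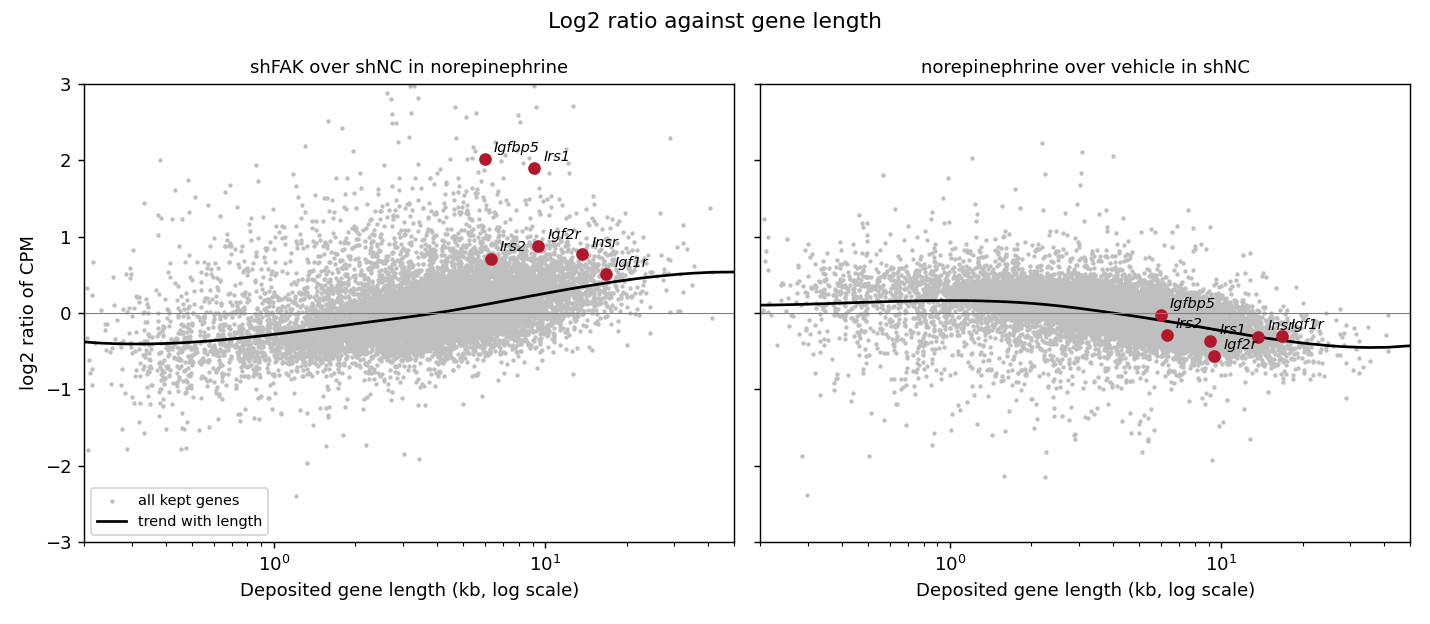
Log2 ratio of CPM against deposited gene length in kb (log axis) for all 12351 genes kept (grey; a few lie beyond the plotted range), with the smooth trend (black line) and the named members and Insr (red), for shFAK over shNC in norepinephrine (left) and norepinephrine over vehicle in shNC (right). Igfbp5 and Irs1 lie far above the trend on the left, and Igf1r (16791 bases) lies close to it in both panels.

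Igfbp5 showed no norepinephrine difference beyond counting error in either line. Its norepinephrine over vehicle log2 ratio was 0.07 in shFAK (interval -0.08 to 0.22) and -0.03 in shNC (-0.31 to 0.25). For Irs1 the intervals were wide, at 0.31 in shFAK (-0.40 to 1.03) and -0.37 in shNC (-1.69 to 0.82).

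The longer receptor transcripts and Irs2 were lower with norepinephrine in shNC. Igf2r, with the lowest ratio, was at -0.07 in shFAK (-0.19 to 0.05) and at -0.56 in shNC (-0.71 to -0.42). Igf1r was at -0.11 in shFAK (-0.21 to 0.00, short of 0) and at -0.30 in shNC (-0.41 to -0.19). Irs2 was at 0.04 in shFAK (-0.11 to 0.19) and at -0.29 in shNC (-0.46 to -0.11). Insr was at -0.13 in shFAK (-0.24 to -0.01) and at -0.31 in shNC (-0.45 to -0.18). No member met the size rule with norepinephrine in either line, where 0.866% of all genes kept did so in shFAK and 0.858% in shNC, in either direction. In shNC the interval left out 0 on the lower side for 3 of the 5 members kept, against 22.8% of all genes kept. In shFAK it left out 0 for 1 of the 5, Igf1r, against 22.7% of all genes kept in either direction.

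**Figure D4:**
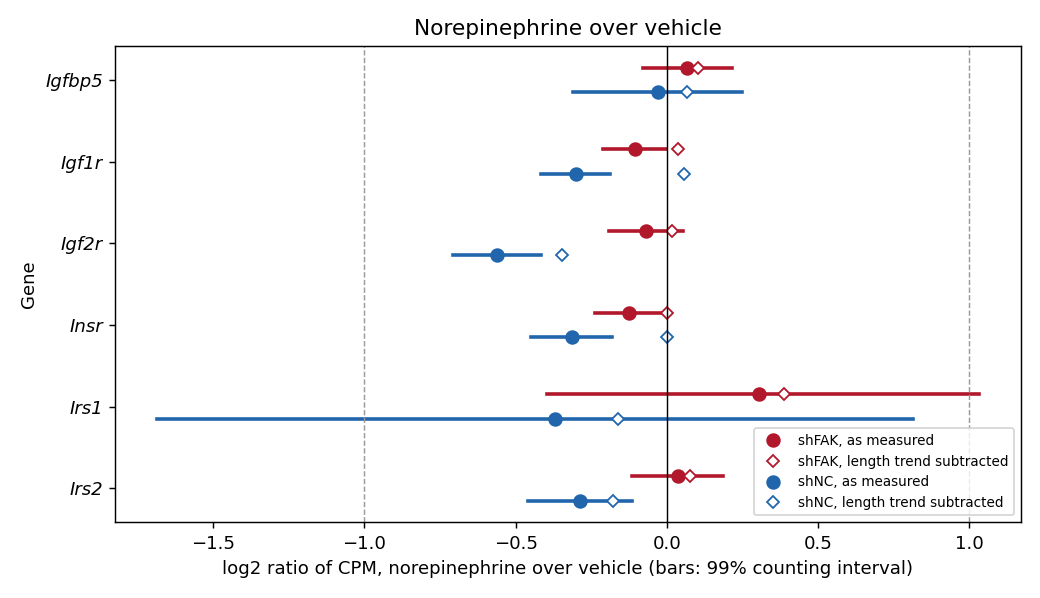
Log2 ratio of CPM, norepinephrine over vehicle, for the same genes in shFAK (upper of each pair) and in shNC, with 99% counting intervals as bars and the ratios with the length trend subtracted as open diamonds. In shNC, Igf2r (-0.56), Igf1r (-0.30), Insr (-0.31) and Irs2 (-0.29) lie below 0, and with the trend subtracted Igf2r stays at -0.35 while Igf1r and Insr lie at 0.06 and 0.00.

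The norepinephrine ratios also varied with gene length, with Spearman correlations of -0.29 in shFAK and -0.49 in shNC across the genes kept. With the trend subtracted, Igf2r was at -0.35 in shNC (-0.49 to -0.20) and Irs2 at -0.18 (-0.35 to -0.01), while Igf1r was at 0.06 (-0.06 to 0.17). In shFAK, Igf1r then stood at 0.04 (-0.07 to 0.14). With length and GC subtracted together, Irs2 was at -0.27 in shNC (-0.44 to -0.10), Igf2r at -0.38 and Igf1r at 0.03. The treatment ratio in shNC and the hairpin ratio in norepinephrine share the shNC norepinephrine library, so the low Igf2r count of 1066 there enters both.

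The responses of the lines were set against each other as the shFAK minus shNC difference of the norepinephrine log2 ratios, with a 99% normal interval from the counts. Igf2r differed by 0.49 (0.31 to 0.68), Irs2 by 0.32 (0.10 to 0.55) and Igf1r by 0.19 (0.04 to 0.35). Igfbp5 differed by 0.10 (-0.21 to 0.41) and Irs1 by 0.67 (-0.67 to 2.02). No member met the size rule for this difference, which 0.793% of all genes kept did. The interval lay above 0 for 3 of the 5 members kept, against 11.9% of all genes kept. With the length trend subtracted, Igf2r was at 0.37 (0.18 to 0.55) and Irs2 at 0.26 (0.03 to 0.48), while Igf1r was at -0.02 (-0.17 to 0.13).

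The wider pathway was described with 107 gene symbols in 8 lists, of which 101 were in the table and 70 were kept. Only Plau, urokinase, met the size rule in any pair, at 1.34 in norepinephrine (0.70 to 2.10) for shFAK over shNC, with 101 counts in shFAK against 43 in shNC; in vehicle it was at 0.80, with 81 counts in shFAK against 51 in shNC. For shFAK over shNC, the intervals of 36 genes of the 70 were above 0 and 11 below in norepinephrine, and 30 were above and 14 below in vehicle. Over all 12351 genes kept, 27.6% were above and 25.8% below in norepinephrine, and 21.0% above and 20.9% below in vehicle. The median log2 ratio of the 70 was 0.22 in norepinephrine and 0.14 in vehicle, against 0.02 and 0.00 over all genes kept. For norepinephrine over vehicle, 9 were above 0 and 18 below in shFAK, and 15 above and 33 below in shNC, with medians of -0.04 and -0.09. Over all genes kept, 10.3% were above and 12.4% below in shFAK, and 21.7% above and 22.8% below in shNC. No length trend was subtracted from the counts and medians of this paragraph. In shNC, subtracting it took the norepinephrine median of the 19 PI3K, AKT and FOXO genes kept from -0.21 to -0.08. That of the 15 TOR and S6 kinase genes went from -0.09 to 0.01. For the 21 adaptors and negative regulators it went from -0.02 to -0.03.

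No gene of a ligand was kept. Igf1, Ins1 and Ins2 had 0 counts in every library, and Igf2 had 5 and 0 counts in shFAK with norepinephrine and vehicle, against 1 and 1 in shNC. Igfbp1, absent from the members, had at most 2 counts in a library. Among 16 IGFBP proteases and inhibitors, 7 were kept, with medians of 0.25 in norepinephrine and 0.19 in vehicle; the intervals of 5 and 6 of them were above 0, where 27.6% and 21.0% of all genes kept were. With the length trend subtracted, the medians were 0.13 in norepinephrine and 0.23 in vehicle. Pappa, which cuts IGFBP4, had at most 1 count per library, whereas its relative Pappa2, which cuts IGFBP5 and IGFBP3, had 131 and 162 counts in shFAK with norepinephrine and vehicle, against 98 and 104 in shNC. The protease gene Htra1 had 19130 and 20141 counts in shFAK, against 21397 and 22076 in shNC, with log2 ratios of -0.01 in norepinephrine and 0.03 in vehicle.

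The CCN proteins and several other secreted or membrane proteins share an IGFBP-like domain. Of the 9 genes of that list found in the table, 4 were kept, with Ctgf and Cyr61 lower and Crim1 higher in shFAK beyond counting error. Cyr61 had 6073 and 6596 counts in shFAK with norepinephrine and vehicle, against 10047 and 10362 in shNC, with log2 ratios of -0.58 and -0.49. Ctgf had 10591 and 11763 counts in shFAK, against 16131 and 18027 in shNC, with log2 ratios of -0.46 in each treatment. Crim1, a membrane protein gene, had 7106 and 8571 counts in shFAK, against 5321 and 7796 in shNC, with log2 ratios of 0.57 in norepinephrine (0.50 to 0.63) and 0.30 in vehicle (0.24 to 0.35). Kazald1 had 68 and 49 counts in shFAK, against 60 and 47 in shNC, with log2 ratios of 0.32 (-0.35 to 1.02) and 0.21 (-0.57 to 1.01), which counting error covers. Pappa, Pappa2, Htra1, Igfbp1, Cyr61, Ctgf, Crim1 and Kazald1 are named here after their values had been seen.

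Downstream of the receptors, none of the 55 genes kept met the size rule for shFAK over shNC, and few would at the share over all genes kept, 3.22% in norepinephrine and 1.88% in vehicle in either direction. The medians of the 21 adaptors and negative regulators kept were 0.18 in norepinephrine and 0.14 in vehicle, those of the 19 PI3K, AKT and FOXO genes 0.27 and 0.03, and those of the 15 TOR and S6 kinase genes 0.06 and 0.03. With the length trend subtracted, these medians were 0.08 and 0.09, 0.05 and 0.01, and 0.03 and -0.08. The 3 IGF2 mRNA-binding protein genes had medians of 0.28 and 0.15, and 0.12 and 0.05 with the trend subtracted.

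**Figure D5:**
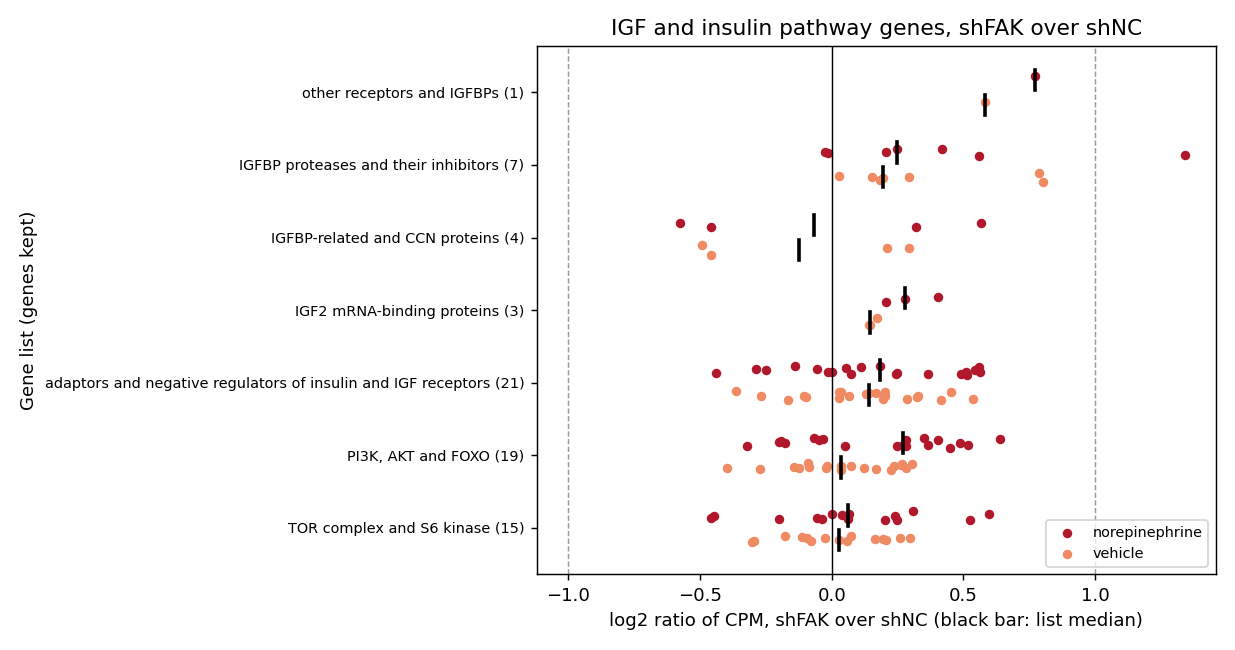
Log2 ratio of CPM, shFAK over shNC, for the kept genes of 7 pathway lists, in norepinephrine (upper of each pair) and vehicle; each point is 1 gene, black bars are list medians, and dashed lines mark a 2-fold difference. Plau at 1.34 in norepinephrine is the 1 point beyond 2-fold, and the medians of the downstream lists lie between 0.03 and 0.27.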

How the data were processed

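RNA-seq libraries of 4 Myc-CaP cultures were analysed from the deposited table of raw counts per gene. The authors' tools were HISAT2 2.0.5 with featureCounts 1.5.0-p3 on mm10, per the submitters' processing notes. Strand setting, annotation release and treatment of multi-mapping reads are not given in the sources used here. Per the labels' protocols, a NEBNext Ultra kit was used. Columns were matched to samples by title. Gene lengths are those of the deposited table.

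TMM factors from edgeR 4.0.16 (R 4.3.3) gave effective library sizes on genes with at least 1 CPM in at least 1 library. Log2 ratios used a prior count of 2 scaled to library size. Ratio intervals were exact 99% Clopper-Pearson intervals of count pairs. With 1 library per group no p-value was computed. PCR reads are not independent molecules, so intervals and floors cover counting error alone. The length trend was a spline with 5 knots on log2 gene length, fitted over all genes kept (scikit-learn 1.9.0). The members had no near-identical copy (a match of 100 bases or more at 95% identity or more, minimap2 2.31, GENCODE M21 transcripts), and their coordinates were the same in GENCODE M21. Ratio computations were tested on simulated data.

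The members, lists, tests and alternatives were chosen with earlier results of these data known. Named genes were the members, Ptk2, the ligands, pathway genes past the size rule that averaged 1 CPM or more, genes that overlap or adjoin a member, and the 3 nearest profiles to each member past the rule that averaged 5 CPM or more; other genes are marked in the text as picked after their values had been seen. DESeq2 1.42.0 size factors were an alternative. Some markers of the epithelial list, and the summed level of that list, are not reported here.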

Additional observations from a re-analysis of the deposited data

How the results depend on the processing

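Of 12 settings including the one reported, none changed the sign of the Igfbp5 ratio of shFAK over shNC. None of the settings that kept Irs1 changed the sign of its ratio. The 1.5-fold setting alters the threshold alone and no ratio. Igfbp5 ranged from 1.90 to 2.10 in norepinephrine and from 1.86 to 1.96 in vehicle, and Irs1 from 1.53 to 1.98 and from 1.02 to 1.28. With a filter of 5 CPM, which leaves out Irs1, 1 member met the size rule in each treatment instead of 2. Over all genes past that filter, 1.34% met it in norepinephrine and 0.854% in vehicle. At a threshold of 1.5-fold, 4 members met it in norepinephrine, with Igf2r and Irs2 added, and 2 in vehicle. Over all genes kept, 11.2% met it at 1.5-fold in norepinephrine and 5.29% in vehicle. With no filter, 1 member met it for norepinephrine in shFAK, Igfbp2 on 8 counts against 0. In shNC 1 member did, Igfbp4 on 17 counts against 4, where 0 did before in either line. Over all 27256 genes without the filter, 1.47% met it in shFAK and 0.635% in shNC. The trend with length moved 8 of 25 member values, and so did the trend with length and GC, added after seeing the data. All of them were of Igf1r or Igf2r. The mark for a move was narrower than the 99% interval. Igf2r for shFAK over shNC in vehicle went to 0.27 under the length trend, inside its interval of 0.26 to 0.50. Library totals alone moved Igf1r for shFAK over shNC in norepinephrine from 0.50 to 0.59, inside its interval of 0.39 to 0.62. Igf1r for norepinephrine over vehicle ran from -0.33 to 0.06 in shNC and from -0.15 to 0.04 in shFAK, and so changed sign; the cause was not tested.

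Over all genes, the count past the size rule was 398 for shFAK over shNC in norepinephrine and 232 in vehicle, 107 and 106 for norepinephrine in shFAK and shNC, and 98 for the difference. These were 1387, 653, 209, 460 and 215 at 1.5-fold, and 135, 86, 14, 29 and 23 with a filter of 5 CPM. With no filter the counts were 663 for shFAK over shNC in norepinephrine and 402 and 173 for norepinephrine in shFAK and shNC. A prior count of 10 gave 65 and 64 for norepinephrine in shFAK and shNC and 42 for the difference. Protein-coding genes alone gave 49 for norepinephrine in shNC and 61 for the difference. These counts are out of 12351 genes, except 10068 with a filter of 5 CPM, 27256 with no filter and 10818 for protein-coding genes alone. No paired analysis was possible because each group had 1 library and the labels give no replicate numbers. Depth limits the ratios of Irs1 and of the other binding proteins.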
